A study of Mus musculus with 6 samples.

Results

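The 52 autophagy and lysosome genes described here are a fixed list of symbols looked up in a table of 24469 loci, and all 52 were found, each at 1 locus. They comprise the machinery that forms autophagosomes, the cargo receptors, the transcription factors that drive lysosomal genes, and the membrane proteins, enzymes and proton pump of the lysosome. RNA-Seq was performed on 6 libraries of MPCs, a conditionally immortalized mouse podocyte line that grows with interferon gamma and was differentiated for 10 days without it in medium with 5.5 mM glucose. All 6 libraries came from cells starved of serum for 12 h and then held in 25 mM glucose (HG) for 12 h. They fell into 3 groups of 2, namely HG without pretreatment, HG after 1 h with 100 ng/mL rFGF1WT (recombinant wild-type human FGF1), and HG after 1 h with 100 ng/mL rFGF1ΔHBS, a partial agonist carrying mutations that weaken the heparan sulfate-assisted pairing of FGF receptors. Cells at normal glucose are not analysed here, and no value below describes the effect of HG itself. Nothing in the labels says whether the libraries of a group came from separate cultures, so the p-values measure only the spread between these libraries.

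Autophagy encloses cytoplasm in a double membrane, the autophagosome, and delivers it to the lysosome for digestion. The ULK1 kinase complex starts the process, a class III phosphatidylinositol 3-kinase (PI3K) marks the membrane with PI3P, and a conjugation machinery attaches ATG8 proteins such as LC3 to it. Podocytes divide little after differentiation and are known for high basal autophagy, and TFEB and its relatives, when not held in the cytoplasm by mTORC1, bind lysosomal gene promoters.

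The authors deposited FPKM, a fragment count scaled to transcript length and to the mapped total of each library. Tests were run on log2(FPKM + 1) with limma in 1 fit of the 6 libraries. The 10562 loci whose FPKM averaged 1 or more entered it, and a gene was called at a Benjamini-Hochberg adjusted p under 0.05 over all of these loci. Fold changes are differences on that log2(FPKM + 1) scale, so those of low genes are understated. An exact permutation test of 2 libraries against 2 cannot give a p below 0.333 and was not used. FPKM do not hold read totals, so depth is unknown, but steps among low values put the depth of the other libraries at 0.973 to 1.01 of that of the first HG library. Of the podocyte markers, *Wt1* did not exceed 0.0731 FPKM and *Nphs1* (nephrin) did not exceed 0.942 FPKM, whereas *Synpo*, at 4.01 to 10.2 FPKM, and *Podxl*, at 14.8 to 17.6 FPKM, were present. Tubular markers were also measured, among them *Cdh16* at 68.4 to 96.2 FPKM.

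The share of members called was no higher than that of all tested loci. With rFGF1WT, 2 of the 51 tested members (3.92%) passed the threshold, *Atg14* and *Hexa*, against 6.19% of all tested loci. With rFGF1ΔHBS, 3 (5.88%) passed, *Ulk2*, *Atg14* and *Mcoln1*, the last as a locus merged with its neighbour *Pnpla6*, against 6.26% of all loci. These 4 loci fell, and lower calls made up 2.94% and 2.89% of all loci. The HG libraries are shared by these comparisons, which are therefore not independent of each other. Only *Atg14* also changed by at least 2-fold, with each protein, as did 1.01% and 0.899% of all loci. At an unadjusted p under 0.05 stood 23 (45.1%) and 25 (49.0%) of the tested members, against 24.8% and 24.9% of all loci. These shares of all loci also apply to the counts by role and by list below. The median standard error was 0.0809 over the tested members and 0.105 over all tested loci, and its part in these shares was not tested. Of these 52 genes, *Mitf* alone was not tested. It had 0.275 and 0.346 FPKM under HG, 0.229 and 0.416 with rFGF1WT, and 0.0881 and 0.438 with rFGF1ΔHBS. No member was at 0 in any library.

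Most members lay slightly below HG. The median log2 fold change over the tested members was -0.16 with rFGF1WT and -0.21 with rFGF1ΔHBS, where the medians over all tested loci were -0.04 and -0.04. Values below 0 were given by 42 (82.4%) and 44 (86.3%) of the 51 members, against 56.2% and 55.6% of all loci. Both rFGF1WT libraries lay below both HG libraries for 28 members (54.9%), against 34.1% of all loci, and above them for 5 members (9.80%), against 24.1%. Both rFGF1ΔHBS libraries lay below both HG libraries for 32 members (62.7%), against 32.9% of all loci, and above them for 5 (9.80%), against 24.4%. For 25 of the 51 members all 4 FGF1 libraries lay below HG, against 25.5% of all loci, and for *Tfeb*, *Ctsd* and *Ctsl* all 4 lay above, against 17.1%. The FPKM of the 52 genes summed to 2155 and 2060 under HG, 1929 and 1828 with rFGF1WT, and 1752 and 1799 with rFGF1ΔHBS. As shares of the total FPKM of a library, these were 1.19% and 1.15%, then 1.04% and 0.998%, then 0.973% and 0.988%. In bulk RNA, fewer cells of a type and less of an RNA per cell cannot be told apart.

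**Figure D1:**
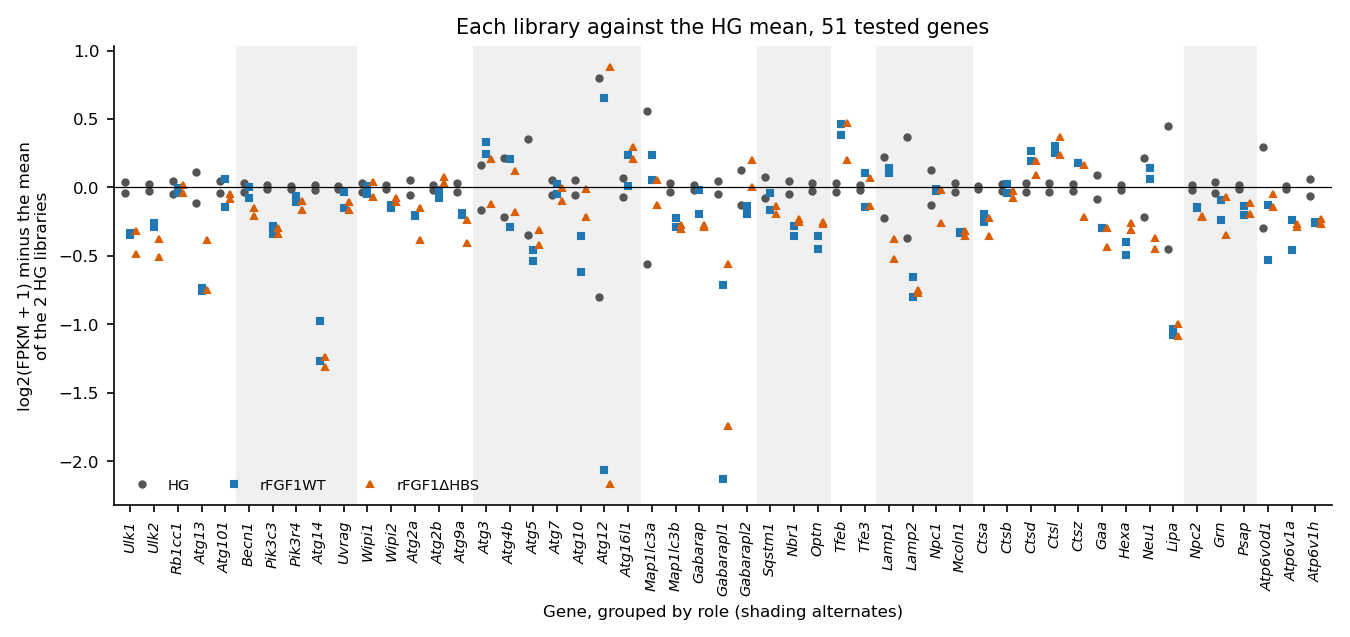
Each point is 1 library of 1 of the 51 tested genes, plotted as log2(FPKM + 1) minus the mean of the 2 HG libraries of that gene (y axis), with genes grouped by role along the x axis and colour and marker giving the group. Most FGF1 points lie a little below 0, *Atg14* lies lowest among genes whose replicates stay together, and the replicates of *Atg12* and *Gabarapl1* lie far apart.

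The ULK1 initiation complex had 5 members, all tested, of which 1 fell with rFGF1ΔHBS and none was called with rFGF1WT (unadjusted p under 0.05 for 3 of 5 with each protein). *Ulk2*, a kinase that starts autophagosome formation, lies on chromosome 11 of GRCm38 from 61775649 to 61855073. It had 11.4 and 11.9 FPKM under HG, 9.54 and 9.29 with rFGF1WT, and 8.73 and 7.86 with rFGF1ΔHBS, so the groups did not overlap. *Ulk2* fell by 0.44 on the log2 scale with rFGF1ΔHBS (standard error 0.0709, adjusted p = 0.0460, limma), and had -0.28 (adjusted p = 0.110) with rFGF1WT. Leaving out any 1 of the 6 libraries ended the call of *Ulk2* (adjusted p = 0.0865 to 0.157). Its paralog *Ulk1*, the best-studied kinase of the complex, had 24.7 and 26.1 FPKM under HG, 19.8 and 19.9 with rFGF1WT, and 17.8 and 20.1 with rFGF1ΔHBS. Its log2 fold changes were -0.34 (adjusted p = 0.0870) with rFGF1WT and -0.40 (adjusted p = 0.0620) with rFGF1ΔHBS, and neither passed. The scaffold *Atg13* had 11.8 and 9.97 FPKM under HG, 6.14 and 6.003 with rFGF1WT, and 6.06 and 8.09 with rFGF1ΔHBS. All 4 FGF1 libraries of *Atg13* lay below HG, with -0.75 (adjusted p = 0.0753) and -0.56 (adjusted p = 0.118). *Rb1cc1*, which encodes the FIP200 scaffold, stayed within 7.35 to 7.91 FPKM in the 6 libraries, and *Atg101* within 10.6 to 12.5.

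The class III PI3K complex contained the largest called change among the members. *Atg14* encodes the subunit that directs the lipid kinase to sites of autophagosome formation. Under HG it had 8.39 and 8.67 FPKM, with a mean of 8.53 ± 0.197 (SD, n = 2). With rFGF1WT it had 3.85 and 2.96 FPKM (3.41 ± 0.629), and with rFGF1ΔHBS 2.83 and 3.03 FPKM (2.93 ± 0.141). All 4 FGF1 libraries lay under 4 FPKM, and mean FPKM was 60.1% lower with rFGF1WT and 65.6% lower with rFGF1ΔHBS. *Atg14* fell by 1.12 with rFGF1WT (standard error 0.118, adjusted p = 0.0208, limma) and by 1.28 with rFGF1ΔHBS (adjusted p = 0.0175). Between the proteins *Atg14* differed by -0.16 (95% interval -0.47 to 0.16, rFGF1ΔHBS minus rFGF1WT), which did not pass. With only the 4 libraries of the comparison fitted, the adjusted p with rFGF1WT was 0.0619, and with 1 library left out it ranged from 0.0324 to 0.0958 with rFGF1WT and from 0.0297 to 0.0826 with rFGF1ΔHBS. The log2 fold change of *Atg14* stayed between -1.27 and -0.97, and between -1.31 and -1.24, in those fits without 1 library.

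*Atg14* spans 10 exons on the minus strand of chromosome 14 of GRCm38, and its locus in the table holds 1 Ensembl transcript, from 47540894 to 47568434. Exons of the gene overlap those of *Gm49004* on the opposite strand, and whether the authors counted by strand is not given in the sources used here. The start of *Atg14* carries the E-box hexamer CACGTG, the core of the element that TFEB and related factors bind. A C precedes it, so it is not part of the longer TCACGTGA described below. This hexamer was found in a promoter of 8.09% of all genes with an entry. It is shown because it lies at the start of the called member with the largest log2 fold change; the stretch is chr14:47568416-47568449, minus strand, RefSeq on GRCm38.p6, with the hexamer in capitals and 19 of its 34 bases after the start.
Atg14: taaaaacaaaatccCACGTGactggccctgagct

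The other subunits of the lipid kinase moved less. *Pik3c3*, the catalytic subunit VPS34, had 11.5 and 11.8 FPKM under HG, 9.39 and 8.99 with rFGF1WT, and 8.98 and 9.28 with rFGF1ΔHBS. Its log2 fold changes were -0.31 (adjusted p = 0.0565) with rFGF1WT and -0.32 (adjusted p = 0.0526) with rFGF1ΔHBS, and neither passed, although the 4 FGF1 libraries lay below both HG libraries. *Becn1*, the Beclin 1 scaffold, had 13.7 and 13.0 FPKM under HG, 13.4 and 12.7 with rFGF1WT, and 11.4 and 12.0 with rFGF1ΔHBS. Its rFGF1WT libraries overlapped HG and its rFGF1ΔHBS libraries lay below. *Pik3r4*, the regulatory subunit, spanned 5.07 to 5.86 FPKM, and *Uvrag*, which takes the place of ATG14 in the endosomal form of the complex, spanned 6.11 to 7.05 FPKM. For *Pik3r4* and *Uvrag* the HG libraries were the highest.

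**Figure D2:**
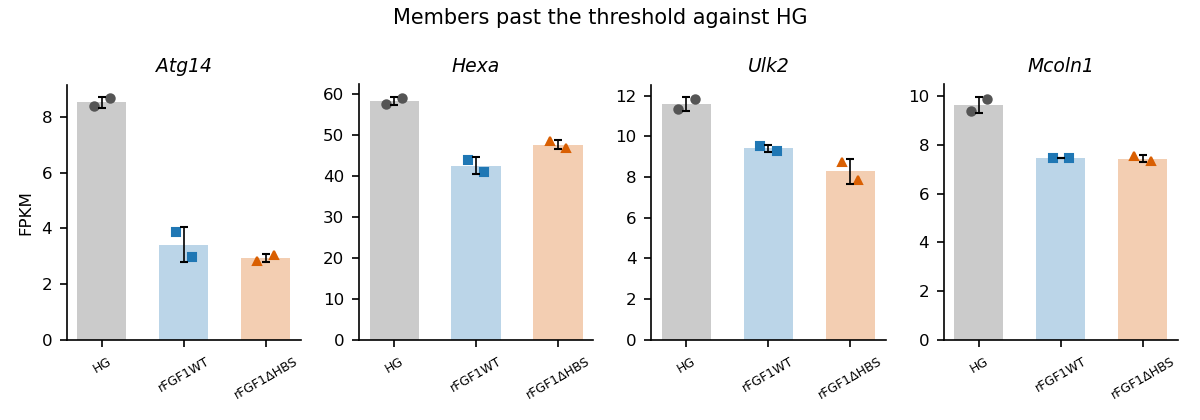
FPKM (y axis, starting at 0) of the 4 called members, *Atg14*, *Hexa*, *Ulk2* and *Mcoln1*, by group (x axis), where points are the 2 libraries, bars their mean and error bars the SD. In each panel the HG libraries lie above the 4 FGF1 libraries, and the gap relative to the level is widest for *Atg14*, at 8.39 and 8.67 FPKM against 2.83 to 3.85.

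The next step, PI3P effectors, lipid transfer and ATG9 traffic, had 5 members and none was called with either protein (unadjusted p under 0.05 for 1 and 2 of 5). *Atg2a*, which moves lipid into the growing membrane and had the highest mean FPKM of this step, had 22.5 and 24.4 FPKM under HG, 20.2 and 20.3 with rFGF1WT, and 17.7 and 21.1 with rFGF1ΔHBS. The log2 fold changes came to -0.20 (adjusted p = 0.300) and -0.27 (adjusted p = 0.200). *Wipi2*, the PI3P reader that recruits the conjugation machinery, gave -0.14 (adjusted p = 0.181) and -0.09 (adjusted p = 0.334), and *Wipi1* stayed within 3.65 to 4.02 FPKM. *Atg9a*, the membrane protein of the vesicles that seed autophagosomes, shares its locus in the table with *Abcb6* and *Gm29253*, and this merged locus gave -0.20 (adjusted p = 0.224) and -0.32 (adjusted p = 0.0960). *Atg2b* was the member of this step with both rFGF1ΔHBS libraries above HG, at 6.10 and 5.87 FPKM against 5.64 and 5.82.

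The ATG8 conjugation machinery had 7 members and again none was called (unadjusted p under 0.05 for 1 and 0 of 7). *Atg3*, the E2-like enzyme that passes ATG8 proteins to lipid, had 13.6 and 10.6 FPKM under HG, 15.4 and 14.4 with rFGF1WT, and 14.02 and 11.0 with rFGF1ΔHBS. The log2 fold changes came to 0.29 (adjusted p = 0.372) and 0.04 (adjusted p = 0.913). *Atg12*, the ubiquitin-like partner of ATG5, was the least steady member of the list. It had 6.20 and 20.9 FPKM under HG, 18.7 and 2.004 with rFGF1WT, and 22.05 and 1.79 with rFGF1ΔHBS. Replicates of *Atg12* thus differed 3.36-fold, 9.34-fold and 12.3-fold within the groups, and the standard error of its log2 fold change was 1.48. *Atg5*, the conjugation partner, had 10.6 and 17.8 FPKM under HG against 9.20 to 10.9 in the FGF1 libraries. *Atg10*, a second E2-like enzyme, had 1.91 and 1.70 FPKM under HG, 1.19 and 0.828 with rFGF1WT, and 1.41 and 1.78 with rFGF1ΔHBS. *Atg7*, the E1-like enzyme, stayed within 3.38 to 3.87 FPKM. *Atg4b*, the protease that trims ATG8 proteins, spanned 3.63 to 5.55 FPKM with overlapping groups, and *Atg16l1*, which places the ATG12-ATG5 conjugate on the membrane, spanned 2.56 to 3.60.

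In the ATG8 family of 5, which coat the autophagosome and hold cargo receptors, no member was called (unadjusted p under 0.05 for 1 and 2 of 5). *Gabarap* had the highest mean FPKM, with 110.3 and 107 FPKM under HG, 108 and 94.9 with rFGF1WT, and 88.7 and 89.5 with rFGF1ΔHBS. The log2 fold changes came to -0.11 (adjusted p = 0.436) and -0.28 (adjusted p = 0.105). *Map1lc3b*, which encodes the LC3B used as an autophagosome marker, had 22.5 and 21.5 FPKM under HG, 18.6 and 17.8 with rFGF1WT, and 17.97 and 17.6 with rFGF1ΔHBS. The 4 FGF1 libraries of *Map1lc3b* overlapped each other and lay below HG, but -0.26 (adjusted p = 0.0796) and -0.29 (adjusted p = 0.0634) did not pass. *Gabarapl1* had 69.9 and 65.6 FPKM under HG, 40.9 and 14.7 with rFGF1WT, and 45.5 and 19.5 with rFGF1ΔHBS. Its FGF1 libraries lay well below HG, but replicates differed 2.78-fold and 2.34-fold, and -1.42 (adjusted p = 0.261) and -1.15 (adjusted p = 0.347) did not pass. *Gabarapl2* spanned 3.76 to 5.27 FPKM, and *Map1lc3a* had 4.24 and 10.3 FPKM under HG, which enclosed its FGF1 libraries.

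Cargo receptors bind ubiquitinated material and ATG8 proteins at the same time. *Sqstm1*, which encodes p62, had 147 and 163 FPKM under HG, 151 and 138 with rFGF1WT, and 136 and 141 with rFGF1ΔHBS. Its log2 fold changes were -0.10 (adjusted p = 0.480) with rFGF1WT and -0.16 (adjusted p = 0.296) with rFGF1ΔHBS, and neither passed. *Nbr1* had 29.2 and 31.1 FPKM under HG, 23.4 and 24.7 with rFGF1WT, and 25.5 and 25.1 with rFGF1ΔHBS, with -0.32 (adjusted p = 0.0617) and -0.24 (adjusted p = 0.0960). *Optn* (optineurin) had 3.71 and 3.90 FPKM under HG, 2.52 and 2.75 with rFGF1WT, and 3.03 and 2.998 with rFGF1ΔHBS, with -0.40 (adjusted p = 0.0565) and -0.26 (adjusted p = 0.123). *Nbr1* and *Optn* lay below HG in the 4 FGF1 libraries and none of the 3 receptors was called (unadjusted p under 0.05 for 2 of 3 with each protein).

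Of the MiT/TFE factors, *Tfeb*, the main activator of lysosomal genes, stood above HG. It had 3.33 and 3.14 FPKM under HG, 4.84 and 4.52 with rFGF1WT, and 3.87 and 4.87 with rFGF1ΔHBS. The 4 FGF1 libraries of *Tfeb* overlapped each other and lay above HG, but 0.42 (adjusted p = 0.119) and 0.34 (adjusted p = 0.172) did not pass. *Tfe3*, its relative with the highest mean FPKM of these factors, had 8.20 and 7.97 FPKM under HG, 7.22 and 8.75 with rFGF1WT, and 7.27 and 8.54 with rFGF1ΔHBS. Its log2 fold changes of -0.02 and -0.03 changed sign with the scaling. None of the 2 tested factors was called with limma (unadjusted p under 0.05 for 1 of 2 with each protein).

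**Figure D3:**
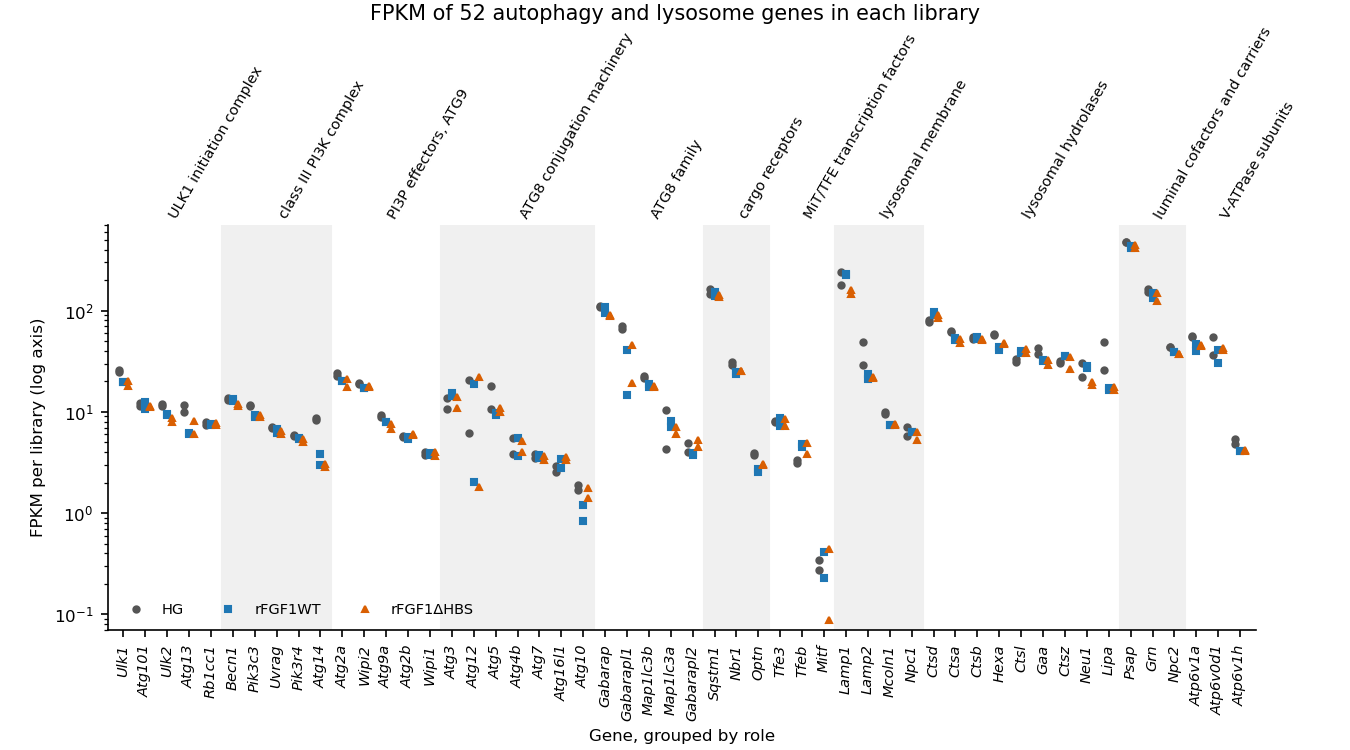
FPKM of all 52 genes in each of the 6 libraries (y axis, logarithmic), with genes grouped by role and ordered by mean FPKM within a role along the x axis. Mean FPKM ran from 0.299 for *Mitf* to 442 for *Psap*, and the lysosomal hydrolases lay between 23.8 (*Lipa*) and 87.0 (*Ctsd*).

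The members also differed in level. FPKM is scaled by transcript length, so levels can be set side by side between genes. The median of the mean FPKM over the 52 genes was 12.3, where the median over the tested loci was 7.91. The median was 4.61 for the conjugation machinery and 6.57 for the PI3K complex, but 37.0 for the lysosomal hydrolases and 146 for the luminal cofactors and carriers. The 4 genes with a mean of at least 100 FPKM were *Psap*, *Lamp1*, *Sqstm1* and *Grn*.

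Among the 4 lysosomal membrane members, 1 locus fell with rFGF1ΔHBS and none was called with rFGF1WT (unadjusted p under 0.05 for 3 and 2 of 4). *Mcoln1* encodes the lysosomal calcium channel TRPML1, on chromosome 8 of GRCm38 from 3500457 to 3515232. In the table it shares a locus with its neighbour *Pnpla6*, and 10 of the 28 Ensembl transcripts of that locus belong to *Mcoln1*, so the value cannot be assigned to *Mcoln1* alone. The merged locus had 9.41 and 9.89 FPKM under HG, 7.48 and 7.46 with rFGF1WT, and 7.55 and 7.34 with rFGF1ΔHBS. The 4 FGF1 libraries lay close together and below HG. The merged locus of *Mcoln1* and *Pnpla6* fell by 0.33 with rFGF1ΔHBS (standard error 0.0564, adjusted p = 0.0499, limma), and the same -0.33 with rFGF1WT had an adjusted p of 0.0506. The 2 values thus lie on either side of the threshold with almost no difference in size, and leaving out any 1 library ended the call (adjusted p = 0.103 to 0.162).

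Replicates of other membrane proteins were less close. *Lamp1*, an abundant protein of the lysosomal membrane, had 242 and 177 FPKM under HG, 229 and 223 with rFGF1WT, and 144 and 159 with rFGF1ΔHBS. The rFGF1WT libraries lay between the HG libraries and the rFGF1ΔHBS libraries lay below them, with 0.13 (adjusted p = 0.678) and -0.45 (adjusted p = 0.195). *Lamp2*, needed for fusion with autophagosomes, had 48.6 and 28.7 FPKM under HG, 21.005 and 23.4 with rFGF1WT, and 21.8 and 21.5 with rFGF1ΔHBS. Its -0.73 (adjusted p = 0.187) and -0.76 (adjusted p = 0.173) did not pass, and without the second HG library they were -1.10 (adjusted p = 0.0469) and -1.13 (adjusted p = 0.0468). Without the first HG library they were -0.36 (adjusted p = 0.187) and -0.39 (adjusted p = 0.172). *Npc1*, the cholesterol exporter, spanned 5.21 to 7.12 FPKM with overlapping groups.

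The hydrolases of the lysosome, 9 members, moved in different directions. *Hexa*, the alpha subunit of beta-hexosaminidase that degrades the GM2 ganglioside, lies on chromosome 9 of GRCm38 from 59539540 to 59565109 in 14 exons. It had 57.5 and 58.9 FPKM under HG (58.2 ± 1.04, SD, n = 2), 43.9 and 41.0 with rFGF1WT (42.4 ± 2.05), and 48.3 and 46.8 with rFGF1ΔHBS (47.5 ± 1.09). The 3 groups did not overlap. *Hexa* fell by 0.45 with rFGF1WT (standard error 0.0552, adjusted p = 0.0262, limma), and its -0.29 with rFGF1ΔHBS did not pass (adjusted p = 0.0637). The call of *Hexa* was lost when any 1 library was left out (adjusted p = 0.0672 to 0.107). Its difference between the proteins, 0.16 (95% interval 0.01 to 0.31, adjusted p = 0.905), did not pass either. Exons of *Hexa* overlap those of *Tmem202* on the opposite strand, which had at most 0.196 FPKM in its own locus.

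*Lipa*, the acid lipase that hydrolyses cholesteryl esters, had 49.5 and 26.0 FPKM under HG, 16.5 and 17.0 with rFGF1WT, and 17.5 and 16.4 with rFGF1ΔHBS. The FGF1 libraries were close together and the HG libraries differed 1.90-fold. The log2 fold changes of *Lipa*, -1.06 (adjusted p = 0.138) and -1.04 (adjusted p = 0.138), did not pass, and without the second HG library they were -1.51 (adjusted p = 0.0226) and -1.49 (adjusted p = 0.0247). Without the first HG library the values of *Lipa* were -0.61 (adjusted p = 0.0799) and -0.59 (adjusted p = 0.0826). *Gaa*, the acid glucosidase that digests glycogen, gave -0.30 (adjusted p = 0.138) and -0.36 (adjusted p = 0.0939), and *Ctsa*, the carboxypeptidase that stabilizes the sialidase, gave -0.23 (adjusted p = 0.127) and -0.29 (adjusted p = 0.0827). That sialidase, *Neu1*, had 30.1 and 21.99 FPKM under HG, 28.4 and 26.9 with rFGF1WT, and 19.7 and 18.6 with rFGF1ΔHBS, a pattern over the libraries like that of *Lamp1*.

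The cathepsins *Ctsl* and *Ctsd*, proteases of the lysosome, lay above HG. *Ctsl* (cathepsin L) had 32.9 and 31.3 FPKM under HG, 39.7 and 38.4 with rFGF1WT, and 41.6 and 38.1 with rFGF1ΔHBS. Its 0.28 (adjusted p = 0.0971) and 0.30 (adjusted p = 0.0797) did not pass, with the FGF1 groups overlapping each other but not HG. *Ctsd* (cathepsin D), whose locus is merged with *Ifitm10* and AC034099.1, had 81.3 and 77.7 FPKM under HG, 91.1 and 95.8 with rFGF1WT, and 84.9 and 91.1 with rFGF1ΔHBS, with 0.23 (adjusted p = 0.114) and 0.14 (adjusted p = 0.246). *Ctsb* stayed within 50.7 to 54.5 FPKM, and *Ctsz* had 30.6 and 31.9 FPKM under HG, 35.5 and 35.5 with rFGF1WT, and 26.8 and 35.2 with rFGF1ΔHBS. Of the 9 hydrolases, only *Hexa* was called. An unadjusted p under 0.05 was given by 6 (66.7%) and 5 (55.6%), against 24.8% and 24.9% of all loci.

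**Figure D4:**
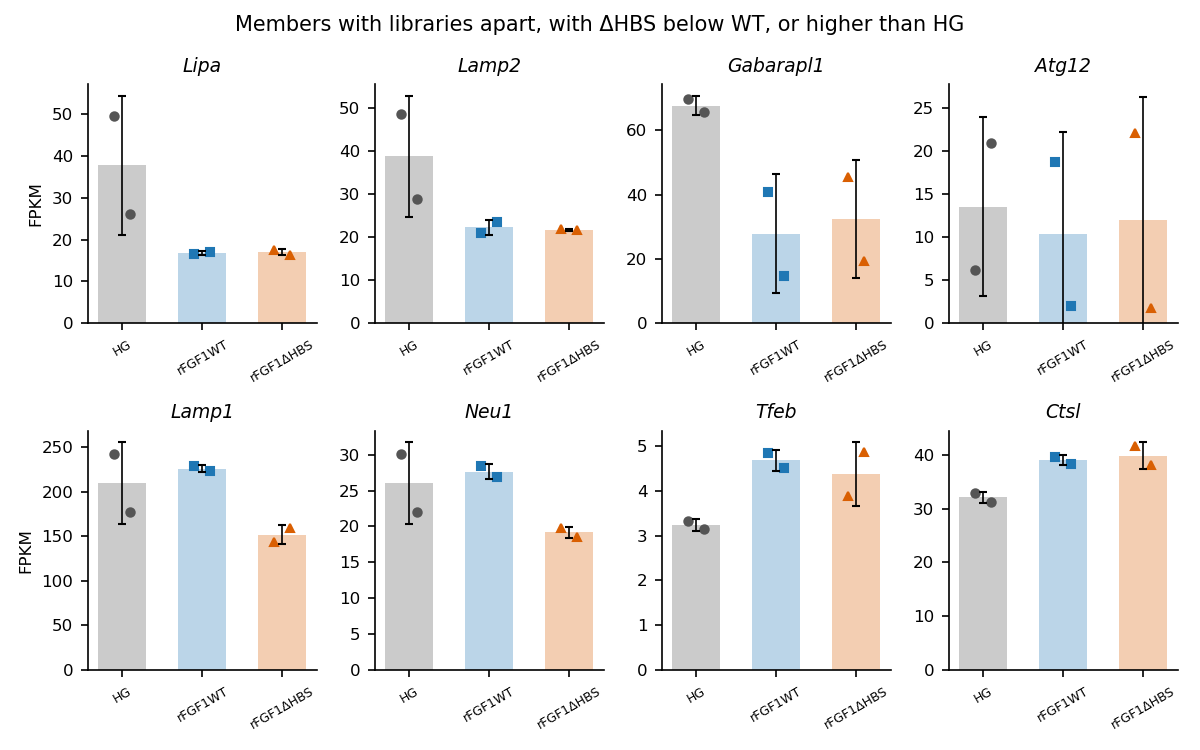
FPKM (y axis, starting at 0) by group (x axis) of 8 members chosen after their values were seen, with points for the 2 libraries, bars for their mean and error bars for the SD. *Lipa* and *Lamp2* have HG libraries apart, *Gabarapl1* and *Atg12* have FGF1 libraries apart, *Lamp1* and *Neu1* are lower with rFGF1ΔHBS than with rFGF1WT, and *Tfeb* and *Ctsl* lie above HG; none of the 8 was called.

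The luminal cofactors and carriers were the most abundant role. *Psap* encodes the precursor of the saposins, which present sphingolipids to their hydrolases. It had 481 and 471 FPKM under HG, 433 and 413 with rFGF1WT, and 415 and 439 with rFGF1ΔHBS. All 4 FGF1 libraries of *Psap* lay below HG, but -0.17 (adjusted p = 0.134) and -0.16 (adjusted p = 0.152) did not pass. *Npc2*, which hands cholesterol to NPC1, had 43.2 and 44.2 FPKM under HG, 39.2 and 39.4 with rFGF1WT, and 37.4 and 37.7 with rFGF1ΔHBS, with -0.15 (adjusted p = 0.132) and -0.21 (adjusted p = 0.0675). *Grn* (progranulin) had 154 and 163 FPKM under HG and 124 to 151 in the FGF1 libraries. None of the 3 was called, and 2 of 3 had an unadjusted p under 0.05 with each protein.

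The V-ATPase acidifies the lysosome. *Atp6v1a*, its catalytic subunit, had 55.5 and 54.8 FPKM under HG, 39.9 and 46.5 with rFGF1WT, and 45.6 and 45.0 with rFGF1ΔHBS. The groups did not overlap with HG, and -0.35 (adjusted p = 0.0992) and -0.28 (adjusted p = 0.143) did not pass. *Atp6v1h*, another subunit of the cytosolic part, had 5.40 and 4.86 FPKM under HG against 4.10 to 4.20 in the FGF1 libraries. *Atp6v0d1*, of the membrane part, had 55.0 and 36.2 FPKM under HG, which bracketed its libraries with rFGF1ΔHBS and the second with rFGF1WT. None of the 3 subunits was called, and 2 had an unadjusted p under 0.05 with each protein.

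Promoters of the members were searched on both strands for the palindrome TCACGTGA, which contains the E-box hexamer CACGTG and is the middle of the CLEAR element of lysosomal genes. The window was 250 bases before and 50 after each RefSeq start on GRCm38.p6, and 43 of the 52 genes had an entry. TCACGTGA was found in 6 of the 43 (14.0%), where 1.12% of all genes with an entry hold it in a promoter of the same length. CACGTG, with or without these flanks, was found in 12 (27.9%), against 8.09% of all genes. GTAAACA, a forkhead motif searched because FOXO factors are known regulators of autophagy genes, was found in 0 members and 4.05% of all genes. The stretches below hold a TCACGTGA, in capitals, of each of the 6 members. They are shown to compare the same letters in genes with unlike values. Of their bases, 8 in *Ctsa* and 17 in *Atp6v0d1* lie after the RefSeq start. RefSeq starts can differ from GENCODE positions, and the stretches of *Mcoln1*, *Ctsa*, *Ctsd* and *Atp6v1a* lie within the GENCODE spans of these genes.
Mcoln1 (chr8:3500460-3500493, plus strand): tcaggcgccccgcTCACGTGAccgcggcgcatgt
Ctsa (chr2:164833747-164833780, plus strand): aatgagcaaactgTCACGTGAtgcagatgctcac
Ctsd (chr7:142387906-142387939, minus strand): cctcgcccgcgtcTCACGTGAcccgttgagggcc
Atp6v0d1 (chr8:105566048-105566081, minus strand): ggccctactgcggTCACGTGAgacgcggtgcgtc
Atp6v1a (chr16:44139371-44139404, minus strand): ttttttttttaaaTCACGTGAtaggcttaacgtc
Atg3 (chr16:45158744-45158777, plus strand): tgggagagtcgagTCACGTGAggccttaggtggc

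Loci of genes with these letters lay on both sides of HG. Of the 6, both rFGF1WT libraries lay below HG for 3 and above HG for 2, and both rFGF1ΔHBS libraries lay below HG for 3 and above HG for 1. Of the 36 other tested members with a promoter entry, 23 and 25 lay below HG and 3 and 3 above, and the shares of all loci are those given above for the members. *Mcoln1*, *Ctsa* and *Atp6v1a* were the 3 below HG with each protein, while *Ctsd* and *Atg3* were above HG with rFGF1WT. Neither *Ctsd* nor *Atg3* was called. The loci of *Mcoln1* and *Ctsd* are merged with other genes, so their values, and medians that include them, cannot be assigned to these genes alone. The median log2 fold change of the 6 was -0.28 with rFGF1WT and -0.19 with rFGF1ΔHBS, and that of the 36 others was -0.17 and -0.23. No entry was found for *Npc1*, *Atg16l1*, *Atg12*, *Pik3c3*, *Map1lc3a*, *Atp6v1h*, *Ctsb*, *Becn1* and *Rb1cc1*.

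Between the proteins, no member was called, against 0.549% of all tested loci. An unadjusted p under 0.05 was given by 3 members (5.88%), *Lamp1*, *Neu1* and *Hexa*, against 4.87% of all loci. Both rFGF1ΔHBS libraries lay below both rFGF1WT libraries for 10 members (19.6%), against 16.1% of all loci, and above them for 8 (15.7%), against 18.4%. *Lamp1* had 229 and 223 FPKM with rFGF1WT and 144 and 159 with rFGF1ΔHBS, a difference of -0.57 (95% interval -1.02 to -0.13, adjusted p = 0.838, rFGF1ΔHBS minus rFGF1WT). *Neu1* had -0.51 (95% interval -0.93 to -0.08, adjusted p = 0.905). *Ulk2*, called with rFGF1ΔHBS alone, differed by -0.17 (95% interval -0.36 to 0.02, adjusted p = 0.905) between the proteins. That a gene passed with 1 protein and not with the other therefore does not show a difference between them, and these intervals do not show that the proteins act alike.

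The rest of the pathway was read from 8 lists of 155 further autophagy and lysosome genes, of which 140 were tested. With rFGF1WT 10 were called (2 higher and 8 lower), which is 7.14% against 6.19% of all tested loci, and with rFGF1ΔHBS 6 were called (2 higher and 4 lower), 4.29% against 6.26%. The shares called were thus near those of all loci. Medians were -0.10 and -0.14. *Prcp*, among the 10, entered the test through its HG libraries, so its call is no support for a difference. No gene of these lists was called between the proteins (unadjusted p under 0.05 for 8). Other lysosomal glycosidases, sulfatases and lipid hydrolases gave 3 (11.1%) and 2 (7.41%) calls of 27, all lower. Lower calls made up 2.94% and 2.89% of all tested loci. *Gm2a*, the activator protein that presents GM2 ganglioside to beta-hexosaminidase, had 16.4 and 16.7 FPKM under HG, 10.6 and 11.2 with rFGF1WT, and 10.6 and 11.4 with rFGF1ΔHBS. *Gm2a* fell by 0.56 (adjusted p = 0.0219, limma) and by 0.55 (adjusted p = 0.0226). *Smpd1*, the acid sphingomyelinase, had 27.5 and 26.7 FPKM under HG, 21.3 and 21.1 with rFGF1WT, and 15.8 and 16.6 with rFGF1ΔHBS. It fell by 0.34 (adjusted p = 0.0433) and by 0.71 (adjusted p = 0.0140), and its difference between the proteins was -0.37 (95% interval -0.51 to -0.23, adjusted p = 0.178). The nuclease *Dnase2a* had 2.96 and 2.93 FPKM under HG, 1.65 and 1.61 with rFGF1WT (adjusted p = 0.0252), and 2.10 and 2.01 with rFGF1ΔHBS (adjusted p = 0.0641).

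Among 5 tested other lysosomal proteases, *Scpep1* was called with each protein and *Prcp* with rFGF1WT. *Scpep1*, a serine carboxypeptidase, had 164 and 156 FPKM under HG, 124 and 119 with rFGF1WT, and 119 and 122 with rFGF1ΔHBS, and fell by 0.39 (adjusted p = 0.0286) and by 0.41 (adjusted p = 0.0263). *Prcp*, a prolyl carboxypeptidase, had 1.66 and 1.49 FPKM under HG, 0.730 and 0.726 with rFGF1WT (adjusted p = 0.0427), and 1.09 and 1.12 with rFGF1ΔHBS (adjusted p = 0.146), and the mean of its 4 FGF1 libraries was below the filter on low FPKM. Of 16 other cargo and organelle receptors, *Bnip3*, a mitophagy receptor, was called with rFGF1WT alone. It had 10.5 and 10.5 FPKM under HG, 7.68 and 7.15 with rFGF1WT (adjusted p = 0.0496), and 7.90 and 7.08 with rFGF1ΔHBS (adjusted p = 0.0514).

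Of 28 tested genes of mTORC1 and its lysosomal regulators, 4 (14.3%) and 3 (10.7%) were called, against 6.19% and 6.26% of all tested loci. The called genes moved both ways. *Deptor*, an inhibitory partner of mTOR, had 4.14 and 4.19 FPKM under HG, 2.10 and 2.38 with rFGF1WT, and 2.34 and 2.37 with rFGF1ΔHBS, and fell by 0.67 (adjusted p = 0.0235) and by 0.62 (adjusted p = 0.0271). *Sesn2*, a leucine sensor that restrains mTORC1, had 10.0 and 9.90 FPKM under HG, 14.4 and 13.2 with rFGF1WT, and 14.8 and 15.8 with rFGF1ΔHBS, and rose by 0.43 (adjusted p = 0.0458) and 0.57 (adjusted p = 0.0261). *Ddit4* (REDD1), which also restrains mTORC1 and was chosen once its values had been seen, had 19.5 and 16.8 FPKM under HG, 29.5 and 27.3 with rFGF1WT (adjusted p = 0.0480), and 29.0 and 32.2 with rFGF1ΔHBS (adjusted p = 0.0348). *Flcn* (folliculin), which lets mTORC1 act on TFEB, had 17.6 and 18.1 FPKM under HG, 12.6 and 12.0 with rFGF1WT (adjusted p = 0.0258), and 16.03 and 14.95 with rFGF1ΔHBS (adjusted p = 0.156).

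Leaving out any 1 library ended 15 of these 16 calls of the other lists (adjusted p = 0.0525 to 0.168), and the call of *Smpd1* with rFGF1ΔHBS was kept in 3 of 6 such fits. No gene was called with either protein among 16 other autophagosome formation genes (unadjusted p under 0.05 for 2 and 2), 13 of autophagosome-lysosome fusion (3 and 3), 20 of other lysosomal membrane and sorting genes (4 and 5) and 15 other V-ATPase subunits (1 and 2). Exons of *Bnip3*, *Deptor*, *Scpep1* and *Dnase2a* overlap those of a gene on the opposite strand, as do those of 19 of the 52 members.

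**Figure D5:**
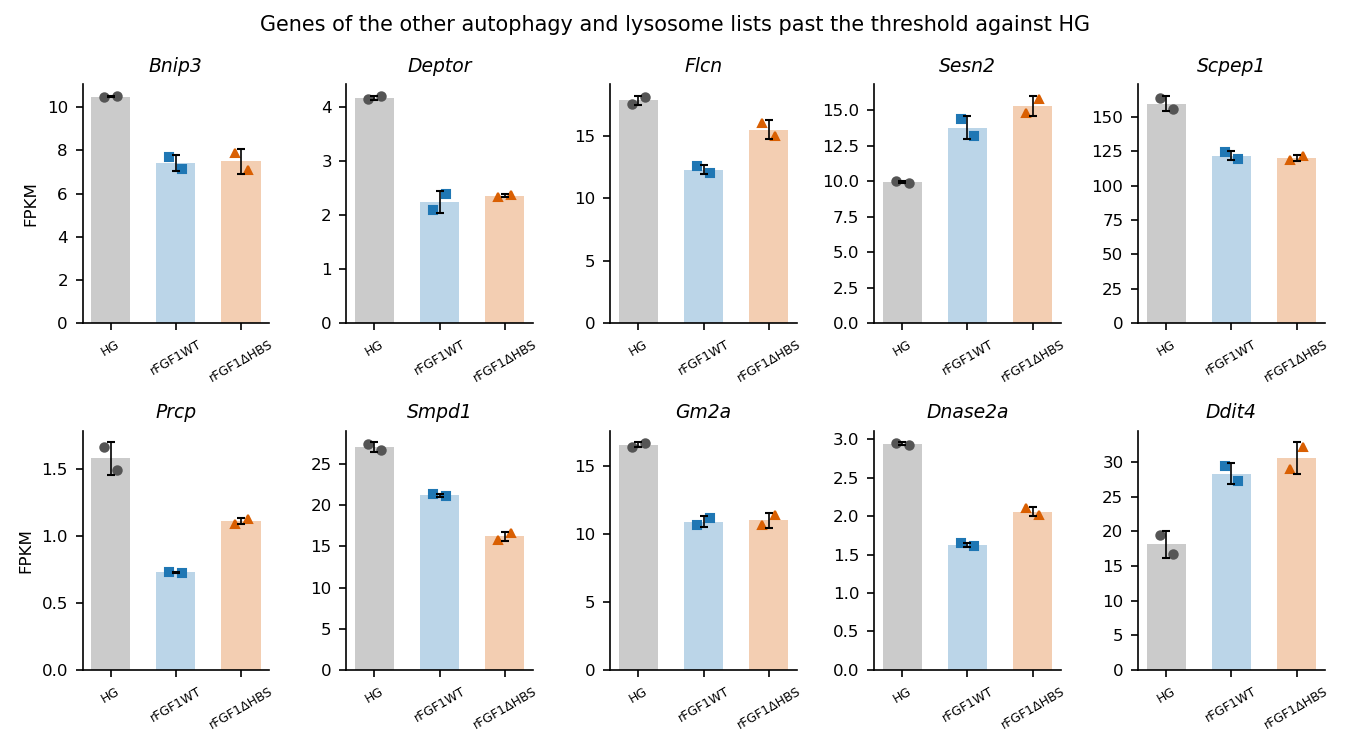
FPKM (y axis, starting at 0) by group (x axis) of the 10 genes of the other lists called against HG with at least 1 protein, with points for the 2 libraries, bars for their mean and error bars for the SD. *Sesn2* and *Ddit4* lie above HG with both proteins and the other 8 below.

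Summed markers of some other cell types differed between the HG and FGF1 libraries. The summed FPKM of 7 tubular markers was 159 and 158 under HG against 109 to 122 in the FGF1 libraries. Of the 7, 4 had a mean FPKM under 1, and none of the 3 tested was called (unadjusted p under 0.05 for 3 and 3, limma). The sum of 10 macrophage and leukocyte markers was 69.9 to 82.6 in all 6 libraries. That of 8 mesangial and fibroblast markers was 63.6 and 62.0 under HG against 68.0 to 77.3 in the FGF1 libraries, with none called and an unadjusted p under 0.05 for 5 and 4 of 5 tested. That of 7 endothelial markers was 1.20 to 3.58 in all 6 libraries. Of the macrophage and leukocyte markers, *Cd68*, itself a lysosomal membrane protein, rose with both proteins (adjusted p = 0.0496 and 0.0363), *Csf1r* fell (adjusted p = 0.0114 and 0.0140), and 7 had a mean FPKM under 1. Of 12 podocyte markers measured, 6 had a mean FPKM under 1, and the sum was 180 to 185 under HG and 213 to 234 in the FGF1 libraries. Of the 6 podocyte markers tested, 1 was called with rFGF1WT, as higher (adjusted p = 0.0483, limma), and none with rFGF1ΔHBS. An unadjusted p under 0.05 was given by 3 and 4 of these 6. The part of these cell types in the values of the autophagy and lysosome genes was not tested.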

How the data were processed

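The authors sequenced poly(A) RNA in paired ends, and edgeR is the tool their methods name for the FPKM they deposited, with limits of q under 0.05 and 2-fold. The submitters' processing notes name Bowtie 0.12.2, HISAT2 2.0, StringTie 1.3.0 and the build mm8, without roles. Libraries were grouped by their labels. The FPKM of the 6 libraries were tested as log2(FPKM + 1) with limma 3.58.1 in R 4.3.3. The fit used lmFit, contrasts and eBayes with a trend, had 3 residual degrees of freedom and covered loci averaging 1 FPKM or more. It was also run on simulated data with 200 genes changed in the rFGF1WT group. Against HG it called 65 of 100 genes changed 2-fold, 80 of 100 changed 4-fold and 10 unchanged genes, so some true changes were missed. Changes were planted only in genes with a mean log2(FPKM + 1) above a floor higher than the filter. None was smaller than 2-fold, so these rates do not describe lower genes or smaller changes. Members were looked up by symbol. One podocyte marker is not reported here. Members, lists and tests were chosen with earlier results of these data known.

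Named with FPKM of every library are members called in any comparison, the member with the highest mean FPKM of a role with none, and up to 3 called genes per other list, by adjusted p. A further 16 genes were chosen after their values were seen. Positions come from GENCODE M21 on GRCm38, which holds 356 of the 357 Ensembl transcripts of the member loci, and coordinates on mm8 were not used. The 15 alternatives were quantile normalization, median-ratio scaling, a pseudocount of 0.1, no filter, a filter at a mean of 5 FPKM, a fit of only the 4 libraries of a comparison, summed loci, a replicate block, a 2-fold limit, and each of 6 libraries left out in turn. Tables and plots used pandas 2.3.3, numpy 2.4.6 and matplotlib 3.10.9 under Python 3.11.15.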

Additional observations from a re-analysis of the deposited data

How the results depend on the processing

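Precision rests on 2 libraries per group and 3 residual degrees of freedom, and FPKM hold no counting error. The number of members called with rFGF1WT, 2, was 0 with only the 4 libraries of the comparison fitted, 0 with a replicate block, 1 with the 2-fold limit and 0 to 2 without 1 library. With rFGF1ΔHBS, 3 were called, against 1 with 4 libraries, 1 without a filter, 1 after quantile normalization, 0 with the block, 1 with the 2-fold limit and 0 to 2 without 1 library. The fits of 4 libraries, with the block and without 1 library have fewer residual degrees of freedom. The 2 calls without the second HG library, with each protein, were *Lipa* and *Lamp2*, neither of which was called with all 6 libraries. Between the proteins 0 were called under every alternative.

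The median log2 fold change of the members kept its sign under every alternative. It was -0.12 with rFGF1WT and -0.18 with rFGF1ΔHBS under median-ratio scaling, where the medians of all loci were -0.00425 and -0.00538, and ran from -0.20 to -0.12 and from -0.24 to -0.17 without 1 library.

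*Atg14* was called in 5 of 6 other fits of all genes with rFGF1WT and in 6 of 6 with rFGF1ΔHBS (adjusted p = 0.0167 to 0.0359). Without 1 library it was called in 2 of 6 fits with each protein, and losing either HG library ended the call (adjusted p = 0.0958 and 0.0908, 0.0826 and 0.0777). *Hexa* with rFGF1WT was called in 6 of 7 fits (adjusted p = 0.0227 to 0.0663), *Ulk2* with rFGF1ΔHBS in 4 of 7 (0.0371 to 0.0975) and *Mcoln1* in 3 of 7 (0.0438 to 0.104), and each in 0 of 6 without 1 library. With rFGF1WT *Mcoln1* was called in 2 of 7 (0.0456 to 0.0973). The fit of summed loci, among these 6 or 7, could only repeat the main fit, because each member was at 1 locus. The replicate block is not among them and follows below.

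The replicate block, by number, gave adjusted p of 0.0753 and 0.0737 for *Atg14*, and 0.0828 for *Hexa*, 0.114 for *Ulk2* and 0.125 for *Mcoln1*. Deviations of libraries with the same number correlated across genes with r of -0.02, 0.10 and -0.05. These values over all tested loci cannot decide whether libraries with the same number were handled together, which the labels do not say.

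Some values turned in sign, and the cause was not tested. *Tfe3* with rFGF1WT was 0.0157 under median-ratio scaling and 0.0314 after quantile normalization, and with rFGF1ΔHBS 0.00299 after quantile normalization. Without 1 library, *Tfe3* ran from -0.14 to 0.10 with rFGF1WT and from -0.14 to 0.0702 with rFGF1ΔHBS, *Atg12* from -2.06 to 0.65 and from -2.17 to 0.88, *Lamp1* and *Neu1* with rFGF1WT from -0.10 to 0.35 and from -0.12 to 0.32, and *Atg3* with rFGF1ΔHBS from -0.13 to 0.21.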
